A study of Arabidopsis thaliana with 24 samples.

Results

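Transcript levels of 9 DNA replication genes were examined in whole seedlings of Arabidopsis thaliana: the helicase genes MCM2 to MCM7, the sliding clamp genes PCNA1 and PCNA2, and TSO2. They were taken by gene identifier from the deposited tables, and all 9 were found, both among the 32833 genes with counts and among the 28251 genes with FPKM values. The 24 strand-specific RNA sequencing libraries came from 9-day-old seedlings of the exa1-1 line, whose labels say no more of the allele, and of the wild type Col-0. In the salt series seedlings spent 60 min on 200 mM NaCl in 1/2 MS medium or on 1/2 MS alone. In the heat series they spent 60 min at 39 °C or at 23 °C. That made 8 groups of 3 libraries (exa1-1 NaCl, wild-type NaCl, exa1-1 1/2 MS, wild-type 1/2 MS, and exa1-1 39 °C, wild-type 39 °C, exa1-1 23 °C, wild-type 23 °C), said to be independent biological replicates. All seedlings had grown on 1/2 MS with sucrose, and the sources used here do not say how many went into a library.

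MCM2 to MCM7 encode the subunits of the ring-shaped helicase that is loaded on replication origins in G1 and unwinds DNA in S phase. PCNA encodes the clamp that slides on DNA behind the fork and holds DNA polymerase and repair enzymes, and Arabidopsis has a pair of such genes. TSO2 encodes a small subunit of ribonucleotide reductase, the enzyme that makes deoxyribonucleotides for DNA synthesis. In plants such genes are known as targets of E2F transcription factors, which bind sites rich in G and C near the start of S phase genes. In a whole seedling they are used mostly in meristems and in young cells that copy their DNA without dividing.

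The stretches just before the annotated gene starts show what the helicase genes MCM2 to MCM6 share in sequence. They are printed because they hold the E2F words and, for the PCNA pair, because their transcripts parted at 39 °C. They are RefSeq sequences of build TAIR10.1 in the direction of transcription, ending at the base before the start: MCM2 chr1:16970094-16970213 (plus strand), MCM3 chr5:18773707-18773886 (minus), MCM4 chr2:7130730-7130849 (minus), MCM5 chr2:3527501-3527620 (minus), MCM6 chr5:18010668-18010787 (minus), PCNA1 chr1:2262924-2263036 (plus) and PCNA2 chr2:12651754-12651825 (minus). The PCNA stretches stop where a neighbouring annotated gene begins. Capitals mark matches to the motifs given after the sequences.
MCM2: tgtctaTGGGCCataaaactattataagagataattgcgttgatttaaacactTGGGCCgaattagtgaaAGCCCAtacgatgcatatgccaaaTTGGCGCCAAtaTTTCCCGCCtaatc
MCM3: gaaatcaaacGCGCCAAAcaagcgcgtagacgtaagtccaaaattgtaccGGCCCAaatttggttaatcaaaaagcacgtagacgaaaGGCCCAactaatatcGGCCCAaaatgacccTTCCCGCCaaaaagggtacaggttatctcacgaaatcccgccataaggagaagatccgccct
MCM4: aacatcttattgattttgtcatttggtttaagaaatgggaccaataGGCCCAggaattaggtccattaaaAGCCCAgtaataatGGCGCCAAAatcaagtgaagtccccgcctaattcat
MCM5: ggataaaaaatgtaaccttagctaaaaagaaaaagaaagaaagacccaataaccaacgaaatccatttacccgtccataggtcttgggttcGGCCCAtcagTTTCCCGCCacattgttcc
MCM6: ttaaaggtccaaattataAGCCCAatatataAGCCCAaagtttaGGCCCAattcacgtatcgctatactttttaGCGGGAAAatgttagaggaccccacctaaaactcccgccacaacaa
PCNA1: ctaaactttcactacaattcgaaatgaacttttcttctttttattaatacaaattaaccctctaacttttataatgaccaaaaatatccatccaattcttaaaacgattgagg
PCNA2: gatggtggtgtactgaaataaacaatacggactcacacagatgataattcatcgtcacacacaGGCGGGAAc

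Motifs were searched on both strands of the 250 bases before each start. An E2F word (TTTCCCGC, TTTGGCGC, TTTCGCGC or TTTGCCGC) was found for 5 of the 9 genes, MCM2 to MCM6, and in 1.41% of 27443 protein-coding promoters of the same length. A form of the same length shifted by 1 base (TTCCCGCC, TTGGCGCC, TTCGCGCC or TTGCCGCC) can overlap the first and was added after the stretches had been seen. It was found for MCM2, MCM3, MCM4, MCM5 and PCNA2, and in 0.988% of all promoters. In MCM2 the first form of the word spans 14 to 7 bases before the start, in MCM5 19 to 12, in MCM4 35 to 28 and in MCM6 46 to 39. In MCM3 it lies 170 to 163 bases before it. The site II word (TGGGCC or TGGGCT), known from promoters of genes active in dividing plant cells, was present in 6 of 9, MCM2 to MCM6 and PCNA2, against 19.2% of all promoters. In PCNA2 its matches lie 128 to 123 and 110 to 105 bases before the start, inside the neighbouring gene. The telo-box (AAACCCTA) was present in PCNA1 alone among the 9, 118 to 111 bases before the start, which reaches into the neighbouring gene, and in 4.49% of all promoters. In TSO2 and MCM7 none of these letters were found. Another annotated gene overlaps the start of MCM7, so the bases searched there begin inside that gene and no stretch is printed. The words are not particular to the MCM genes. In the lists by role used below, the first form of the E2F word was most frequent for origin licensing genes (4 of 11). Replication protein A genes had it in 3 of 9 and genes of G2 and mitosis in 0 of 22. The site II word was found for 7 of 11 origin licensing genes and 2 of 22 genes of G2 and mitosis. A match describes the sequence and does not show that a factor binds there.

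The libraries held 17658196 to 20992263 counts. The 9 genes had from 55 counts (lowest library of MCM6, wild type at 39 °C) to 1385 counts (highest library of TSO2, exa1-1 on 1/2 MS), and all 9 passed the filter on low counts in each fit. Levels are given in CPM, the counts of a gene set against the total of its library, scaled by TMM, a method that sets the typical gene equal between libraries. EXA1, the mutated gene, averaged 29.6 ± 0.677 CPM in exa1-1 and 103 ± 7.51 CPM in wild type on 1/2 MS (SD, n = 3 each), a log2 difference of -1.79, and -1.84 under NaCl, -2.12 at 23 °C and -3.07 at 39 °C. At 39 °C the 100 most abundant genes took 34.9% of counts in exa1-1 and 33.2% in wild type, against 14.5% in exa1-1 and 15.9% in wild type at 23 °C. When libraries were scaled by their total counts alone, the median gene stood at -1.08 in exa1-1 and -0.95 in wild type for 39 °C over 23 °C on the log2 scale, where TMM put it at -0.08 and -0.07. The heat changes of the 9 genes are therefore given under both scalings. In the salt comparisons the median with total counts was -0.14 in exa1-1 and -0.13 in wild type, and each gene kept its direction. In bulk RNA, fewer cells that express a gene and less RNA of it per cell cannot be told apart.

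Levels of different genes were compared in FPKM, which divides by gene length (for these 9 genes the deposited values imply exactly the RefSeq exon length, for example 3184 bases for MCM2 and 1692 for TSO2). TSO2 (AT3G27060, chr3:9979841-9981620 on the minus strand) was the highest of the 9 and MCM6 (AT5G44635, chr5:18006212-18010667 on the minus strand) the lowest in each of the 8 groups. On 1/2 MS, TSO2 averaged 39.8 ± 0.714 FPKM in exa1-1 and 38.1 ± 0.572 FPKM in wild type, and MCM6 averaged 8.75 ± 0.490 FPKM in exa1-1 and 8.55 ± 0.402 FPKM in wild type (SD, n = 3 each). Among the helicase subunits, MCM5 (AT2G07690, chr2:3522984-3527500 on the minus strand) led in 5 groups and MCM7 (AT4G02060, chr4:900636-905591 on the plus strand) in the wild type at 23 °C and in both groups at 39 °C. The highest of the 6 MCM levels exceeded the lowest 2.09-fold in exa1-1 and 2.04-fold in wild type on 1/2 MS, and 3.54-fold in exa1-1 and 3.87-fold in wild type at 39 °C. The other genes are MCM2 (AT1G44900, chr1:16970214-16974753 on the plus strand), MCM3 (AT5G46280, chr5:18769649-18773706 on the minus strand), MCM4 (AT2G16440, chr2:7126279-7130729 on the minus strand), PCNA1 (AT1G07370, chr1:2263037-2264553 on the plus strand) and PCNA2 (AT2G29570, chr2:12649906-12651753 on the minus strand).

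Across groups, all 9 genes had their highest mean CPM on 1/2 MS, in exa1-1 for 8 of them and in wild type for MCM7. The second place also went to 1/2 MS for 8 genes, and for TSO2 to exa1-1 at 39 °C, whose libraries overlapped those of both 1/2 MS groups. For MCM2 to MCM6 the 6 other groups followed with each neighbour in the order overlapping the next, so neighbours in that order are not resolved, while groups further apart can be (under NaCl, exa1-1 lay below wild type without overlap for MCM2 to MCM5). MCM7 was lowest under NaCl, where its groups lay below all others without overlap. PCNA1 in both 39 °C groups overlapped wild type on 1/2 MS and lay below exa1-1 on 1/2 MS, and it stood apart from the 4 lower groups, under this scaling. How many of all genes had groups without overlap was not counted.

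**Figure D1:**
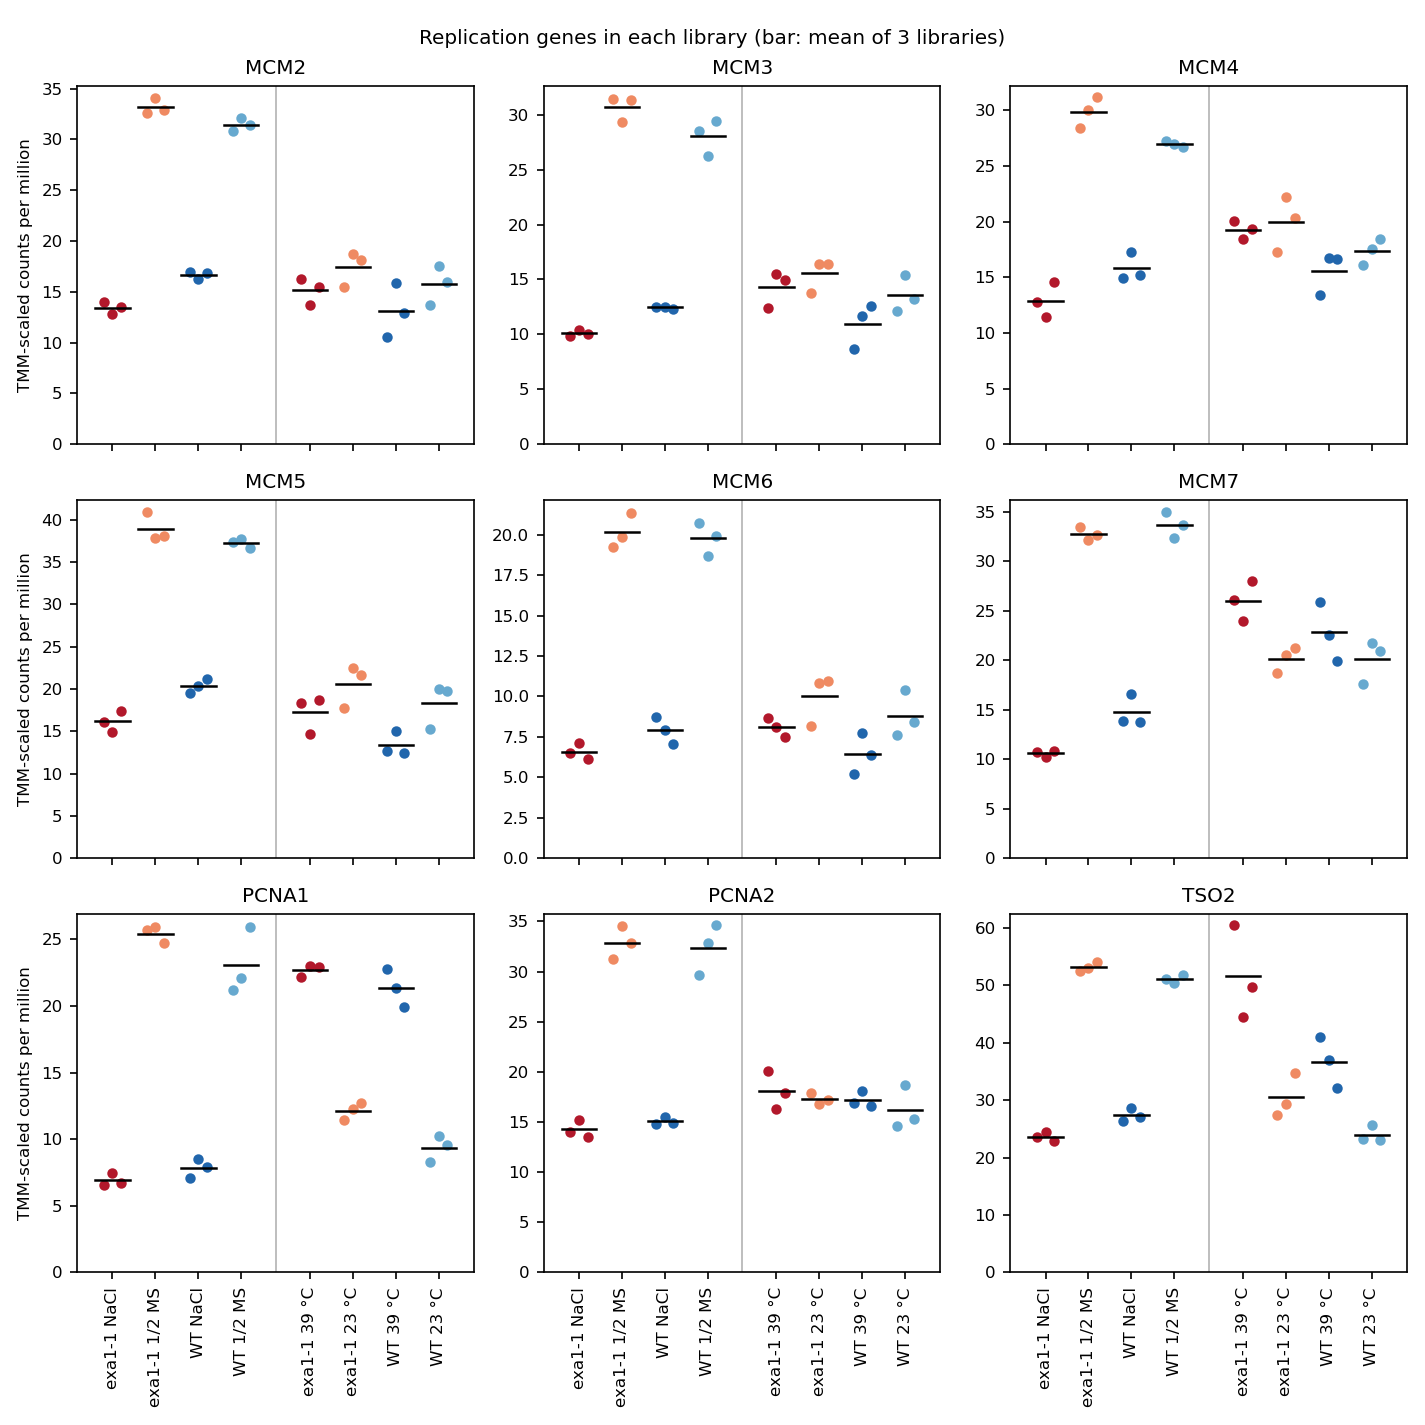
TMM-scaled CPM (y axis) of each of the 9 genes in each of the 24 libraries; points are libraries, bars are means of 3, and the grey line parts the salt series (left) from the heat series (right). All NaCl libraries lie below all 1/2 MS libraries of the same genotype in each panel, and PCNA1 and TSO2 stand higher at 39 °C than at 23 °C under this scaling, a direction that turns with total counts for TSO2 in both genotypes and for PCNA1 in exa1-1.

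The first comparison asked how the replication genes responded to salt. All 9 fell under NaCl in both genotypes. Of the 21462 genes tested, 36.2% were lower in exa1-1 and 35.6% in wild type (71.9% and 70.9% in either direction). In exa1-1 the log2 changes ran from -1.17 (TSO2) to -1.88 (PCNA1) with a median of -1.30. In wild type they ran from -0.78 (MCM4) to -1.56 (PCNA1) with a median of -1.11. The median of all genes was -0.01 in both. The 3 NaCl libraries lay below the 3 control libraries for each of the 9 genes in each genotype. The share of all genes whose libraries lay apart in this way was not counted. PCNA1, a clamp gene, changed most.

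In exa1-1, PCNA1 had 6.59, 7.44 and 6.69 CPM under NaCl, against 25.7, 25.9 and 24.7 CPM on 1/2 MS. The wild type had 7.09, 8.54 and 7.92 CPM under NaCl, against 21.2, 22.1 and 25.9 CPM on 1/2 MS. It thus fell 3.67-fold in exa1-1 (log2 -1.88 ± 0.06 SE, adjusted p = 7.07e-14) and 2.95-fold in wild type (-1.56 ± 0.12, adjusted p = 1.53e-12). The other clamp gene moved less: PCNA2 had 14.0, 15.2 and 13.5 CPM under NaCl, against 31.2, 34.6 and 32.9 CPM on 1/2 MS in exa1-1, a 2.30-fold fall (-1.20, adjusted p = 1.89e-12). It fell 2.16-fold in wild type (-1.11, adjusted p = 7.16e-12).

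Among the helicase subunits MCM3, MCM6 and MCM7 fell most. MCM7 had 10.8, 10.2 and 10.8 CPM under NaCl, against 33.5, 32.2 and 32.7 CPM on 1/2 MS in exa1-1. The wild-type libraries had 13.9, 16.6 and 13.8 CPM under NaCl, against 35.0, 32.4 and 33.7 CPM on 1/2 MS. The fall was 3.09-fold in exa1-1 and 2.30-fold in wild type, and no library of one treatment reached the level of the other. MCM3 fell 3.04-fold in exa1-1 and 2.27-fold in wild type, and MCM6 fell 3.05-fold in exa1-1 and 2.52-fold in wild type. MCM2, MCM4 and MCM5 fell 2.47-fold, 2.31-fold and 2.40-fold in exa1-1, and 1.90-fold, 1.72-fold and 1.84-fold in wild type. TSO2 had 23.5, 24.5 and 22.9 CPM under NaCl, against 52.6, 53.1 and 54.0 CPM on 1/2 MS in exa1-1, and 26.4, 28.6 and 27.1 CPM under NaCl, against 51.1, 50.3 and 51.8 CPM on 1/2 MS in wild type. That was a 2.25-fold fall in exa1-1 and 1.88-fold in wild type. The largest adjusted p of the 9 genes was that of MCM4, 1.28e-11 in exa1-1 and 1.37e-08 in wild type. Among these subunits of 1 helicase the lowest and highest MCM log2 changes were 0.42 apart in exa1-1 and 0.55 apart in wild type. Differences between the subunits were not tested.

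Whether the genotypes differed in this response was asked with the interaction of genotype and salt. For 6 of the 9 genes the fall was larger in exa1-1: MCM2 (-0.38 ± 0.05 on the log2 scale, SE; adjusted p = 0.0047), MCM3 (-0.42 ± 0.06; 0.00624), MCM4 (-0.43 ± 0.13; 0.0143), MCM5 (-0.38 ± 0.08; 0.00721), MCM7 (-0.43 ± 0.10; 0.00869) and TSO2 (-0.26 ± 0.05; 0.0216). Of all genes 11.2% passed, 5.16% with this sign and 6.02% with the other. MCM6 (-0.28 ± 0.12; 0.179), PCNA1 (-0.32 ± 0.13; 0.133) and PCNA2 (-0.09 ± 0.10; 0.637) did not pass. With all 24 libraries in 1 fit 3 genes passed in place of 6, with MCM2 and MCM5 at adjusted p = 0.0541 and 0.0551 and TSO2 at 0.184. With limma on log2(FPKM + 0.1) MCM4 did not pass (adjusted p = 0.0533), and with limma on log2(FPKM + 1) and no filter neither MCM4 (0.071) nor MCM7 (0.0543) did. Among the 6 genes MCM3 alone passed in every setting tried. Without replicate 2 of wild type under NaCl, TSO2 was at -0.22 (adjusted p = 0.0637), and without replicate 3 of wild type on 1/2 MS, PCNA1 also passed (-0.43, adjusted p = 0.0319).

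The genotypes were then compared within each treatment. Under NaCl the same 6 genes were lower in exa1-1 than in wild type (29.5% of all genes passed, 13.6% as lower). On 1/2 MS 0 of the 9 passed in either direction (18.3% of all genes did, 8.14% as higher and 10.1% as lower). With DESeq2 and limma 0 passed there too, and 1 of the 9, MCM3, had an unadjusted p under 0.05 with edgeR. MCM2, for example, had 14.0, 12.8 and 13.5 CPM in exa1-1, against 16.9, 16.2 and 16.9 CPM in wild type under NaCl, a log2 difference of -0.30 ± 0.04 (adjusted p = 0.00131). On 1/2 MS it had 32.6, 34.1 and 32.9 CPM in exa1-1, against 30.8, 32.1 and 31.4 CPM in wild type (0.08 ± 0.03, adjusted p = 0.348), so that the exa1-1 libraries lay below wild type under NaCl and just above it on 1/2 MS. MCM7 differed most under NaCl (-0.46 ± 0.09, adjusted p = 0.000169) and TSO2 least of the 6 (-0.20 ± 0.04, adjusted p = 0.00851). Without replicate 2 of wild type under NaCl, MCM4 (adjusted p = 0.0979) and TSO2 (0.0506) did not pass, and MCM4 missed the threshold without replicate 2 of exa1-1 under NaCl either (0.082). With all 24 libraries in 1 fit TSO2 did not pass there (0.0849), and with limma and no filter MCM4 did not (0.0564). PCNA1 and PCNA2 differed by -0.17 ± 0.09 and -0.07 ± 0.05, with adjusted p of 0.24 and 0.562.

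**Figure D2:**
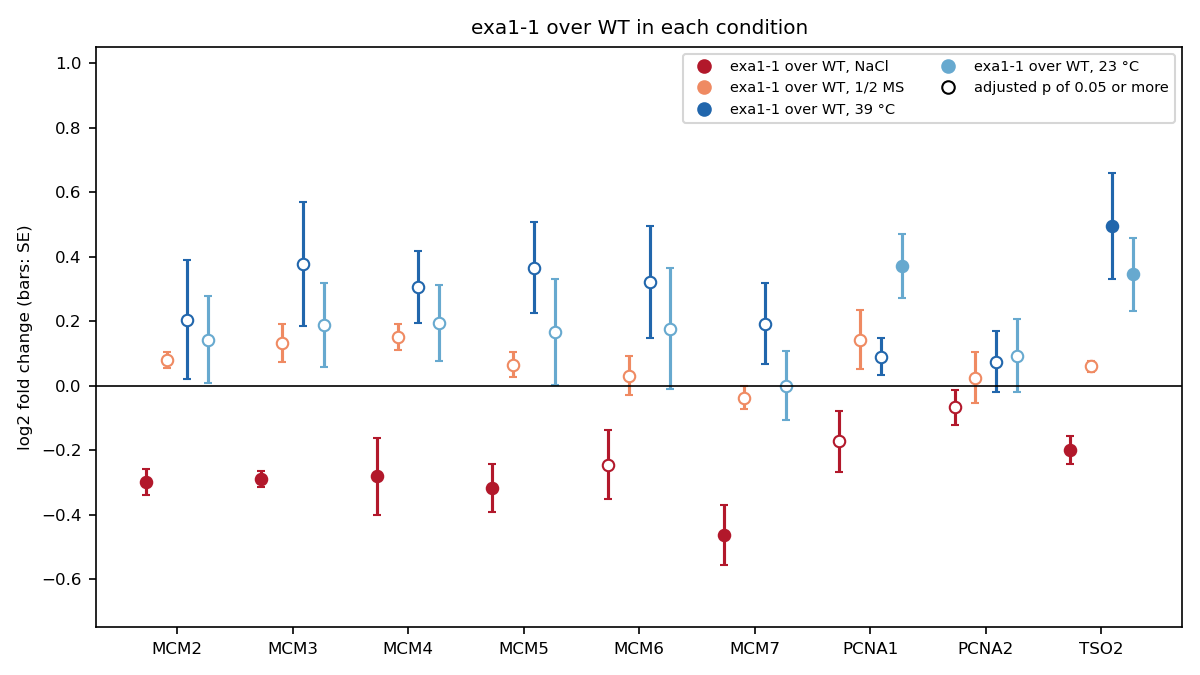
Log2 fold change of exa1-1 over wild type (y axis) for each gene in 4 conditions, with SE bars; filled points passed edgeR's test at an adjusted p under 0.05. Under NaCl 6 genes lie below 0 and passed, on 1/2 MS none passed, and in the heat series PCNA1 and TSO2 at 23 °C and TSO2 at 39 °C lie above 0 and passed.

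The heat comparison asked the same of 60 min at 39 °C. The 9 genes spread out in the same tiers in both genotypes: PCNA1 and TSO2 at the top, then MCM7 and PCNA2, then MCM2 to MCM6. Within MCM2 to MCM6 the order differed between the genotypes. The order of these tiers does not depend on the scaling of libraries, while the sign of some changes does. Relative to the mean change of the 6 MCM genes, PCNA1 stood 1.00 higher on the log2 scale in exa1-1 and 1.43 in wild type, and TSO2 0.86 in both. MCM7 stood 0.46 higher in exa1-1 and 0.42 in wild type, and PCNA2 0.16 in exa1-1 and 0.33 in wild type. MCM2 to MCM6 lay from -0.21 to 0.05 in exa1-1 and from -0.22 to 0.09 in wild type.

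PCNA1 had 22.1, 23.0 and 22.9 CPM at 39 °C, against 11.4, 12.3 and 12.7 CPM at 23 °C in exa1-1. In wild type it had 22.8, 21.4 and 19.9 CPM at 39 °C, against 8.26, 10.2 and 9.55 CPM at 23 °C. No library at 39 °C overlapped one at 23 °C on this scale. In wild type it rose under both scalings, by 1.19 ± 0.11 (SE) with TMM (adjusted p = 1.04e-09) and by 0.31 with total counts (0.00923). In exa1-1 it was higher with TMM (0.91 ± 0.05, adjusted p = 3.24e-08) and at -0.09 with total counts (0.404). TSO2 had 60.5, 44.5 and 49.7 CPM at 39 °C, against 27.4, 29.4 and 34.7 CPM at 23 °C in exa1-1. The wild type had 41.0, 37.0 and 32.1 CPM at 39 °C, against 23.2, 25.7 and 23.0 CPM at 23 °C. Its direction turned with the scaling: 0.76 ± 0.16 with TMM and -0.23 with total counts in exa1-1 (adjusted p = 2.33e-06 and 0.0608), and 0.62 ± 0.11 and -0.27 in wild type (5.91e-05 and 0.0409).

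The helicase genes MCM2 to MCM6 had negative changes under both scalings. In exa1-1 they ran from -0.30 (MCM6) to -0.04 (MCM4) with TMM, where 0 of the 5 passed, and from -1.29 (MCM6) to -1.04 (MCM4) with total counts, where all 5 passed. In wild type MCM3 (-0.31, adjusted p = 0.0473), MCM5 (-0.46, 0.00369) and MCM6 (-0.44, 0.0198) fell with TMM, and with total counts all 5 fell, by 1.03 (MCM4) to 1.34 (MCM5) on the log2 scale. MCM5 had 12.7, 15.0 and 12.4 CPM at 39 °C, against 15.2, 20.0 and 19.8 CPM at 23 °C in wild type, the only MCM gene there whose groups did not overlap. MCM7 also fell with total counts (by 0.62 in exa1-1 and 0.70 in wild type on the log2 scale). With TMM it had 26.1, 23.9 and 28.0 CPM at 39 °C, against 18.7, 20.6 and 21.3 CPM at 23 °C in exa1-1, a log2 change of 0.37 ± 0.09 (adjusted p = 0.00244). In wild type its change with TMM was 0.18 ± 0.14 (0.115). PCNA2 was at 0.07 in exa1-1 and 0.09 in wild type with TMM, and fell by 0.93 in exa1-1 and 0.79 in wild type with total counts.

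In counts with TMM, 3 genes were higher and 0 lower in exa1-1, and 2 were higher and 3 lower in wild type. Of the 20972 genes tested, 38.4% were higher in each genotype, and 41.8% were lower in exa1-1 and 41.6% in wild type (80.2% and 80.1% in all). With total counts 0 were higher and 7 lower in exa1-1, and 1 was higher and 8 lower in wild type, where 12.3% of all genes were higher and 76.7% lower in exa1-1, and 14.5% higher and 72.5% lower in wild type. In wild type the count with TMM was 3 without replicate 2 at 23 °C or without replicate 1 at 39 °C. MCM3 did not pass without replicate 2 or 3 at 23 °C or replicate 1 or 2 at 39 °C (adjusted p = 0.176, 0.0557, 0.273 and 0.0526), nor without replicate 3 of exa1-1 at 39 °C (0.055) or with DESeq2 (0.067). Nor did MCM6 pass without replicate 2 of wild type at 23 °C or replicate 1 or 3 of wild type at 39 °C (0.0974, 0.111 and 0.0519). In exa1-1 it was 5 without replicate 2 of wild type at 23 °C and 6 without replicate 1 of exa1-1 at 23 °C. The interaction of genotype and heat passed for 0 of 9, also with DESeq2 (8.04% of all genes passed, 4.36% as higher and 3.69% as lower). With edgeR 1 of the 9, PCNA1, had an unadjusted p under 0.05 (-0.28 ± 0.12).

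**Figure D3:**
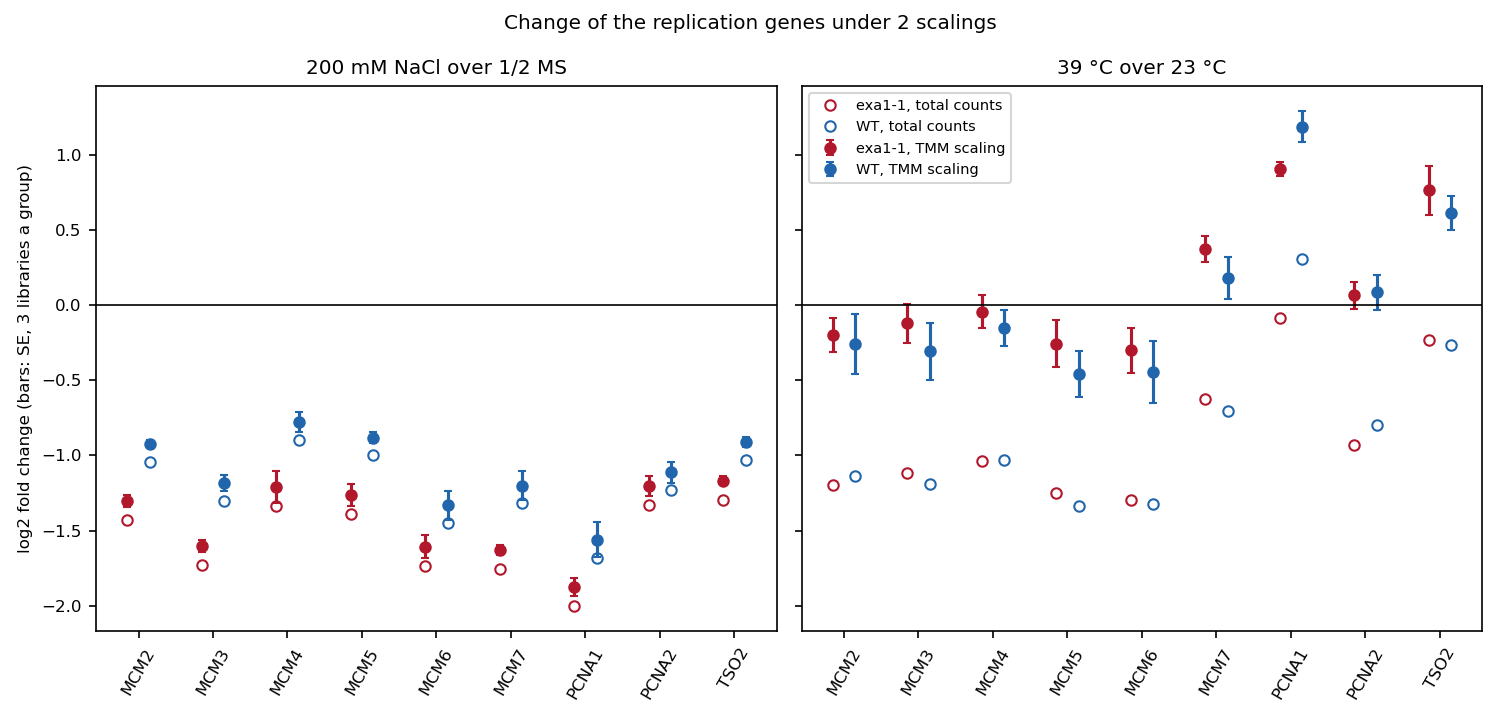
Log2 fold change (y axis) of NaCl over 1/2 MS (left) and of 39 °C over 23 °C (right) in exa1-1 (red) and wild type (blue), filled with TMM scaling and SE bars, open with total counts. The salt changes are all below 0 under both scalings, while in heat only PCNA1 in wild type stays above 0 and MCM2 to MCM6 stay below 0 under both.

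The clamp genes were also compared with each other inside each library, where no scaling enters. The ratio of PCNA1 to PCNA2 FPKM was 1.15, 1.48 and 1.35 at 39 °C, against 0.671, 0.763 and 0.771 at 23 °C in exa1-1. The wild-type ratios were 1.41, 1.24 and 1.26 at 39 °C, against 0.594, 0.571 and 0.653 at 23 °C. PCNA1 was thus the higher of the pair in all 6 libraries at 39 °C and the lower in the other 18. The ratio was 1.97-fold higher at 39 °C (log2 0.97; exact permutation test within genotype, two-sided, p = 0.005, adjusted p = 0.01 over 4 tests), where 0.005 is the smallest p the 400 arrangements allow. The salt series differed in the other direction: the ratio averaged 0.507 ± 0.0134 under NaCl and 0.810 ± 0.0435 on 1/2 MS in exa1-1 (SD, n = 3 each). The wild-type ratio averaged 0.544 ± 0.0375 under NaCl and 0.744 ± 0.0401 on 1/2 MS. The log2 change over both was -0.56 (exact permutation p = 0.005, adjusted p = 0.01). Between genotypes the log2 ratio differed by 0.01 in the salt series (exact permutation p = 0.825) and by 0.15 in the heat series (exact permutation p = 0.11, adjusted p = 0.147), each over both treatments of the series. Within treatments it differed by -0.10 under NaCl and 0.12 on 1/2 MS, and by 0.02 at 39 °C and 0.28 at 23 °C. At 23 °C the 3 exa1-1 ratios lay above the 3 wild-type ratios. With 3 against 3 libraries the exact permutation test could not pass within a treatment, so the ratio was not tested there.

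How reads were divided between the pair bears on this ratio. Their coding sequences are 85.3% identical, with 41 bases as the longest shared stretch, so a read over more than 41 coding bases holds at least 1 difference between them. PCNA2 also shares 279 of its 1183 exon bases with AT2G29560 on the opposite strand, and the sources used here do not give the strand setting of the counting. AT2G29560 averaged 43.8 CPM at 39 °C and 27.3 CPM at 23 °C in exa1-1, and 36.1 CPM at 39 °C and 23.9 CPM at 23 °C in wild type. It averaged 28.4 CPM under NaCl and 46.3 CPM on 1/2 MS in exa1-1, and 27.7 CPM under NaCl and 43.1 CPM on 1/2 MS in wild type. Its part in the PCNA2 counts was not tested. MCM7 shares 21 exon bases with the antisense gene AT4G02050 and TSO2 shares 3 with AT3G27050 on its own strand.

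**Figure D4:**
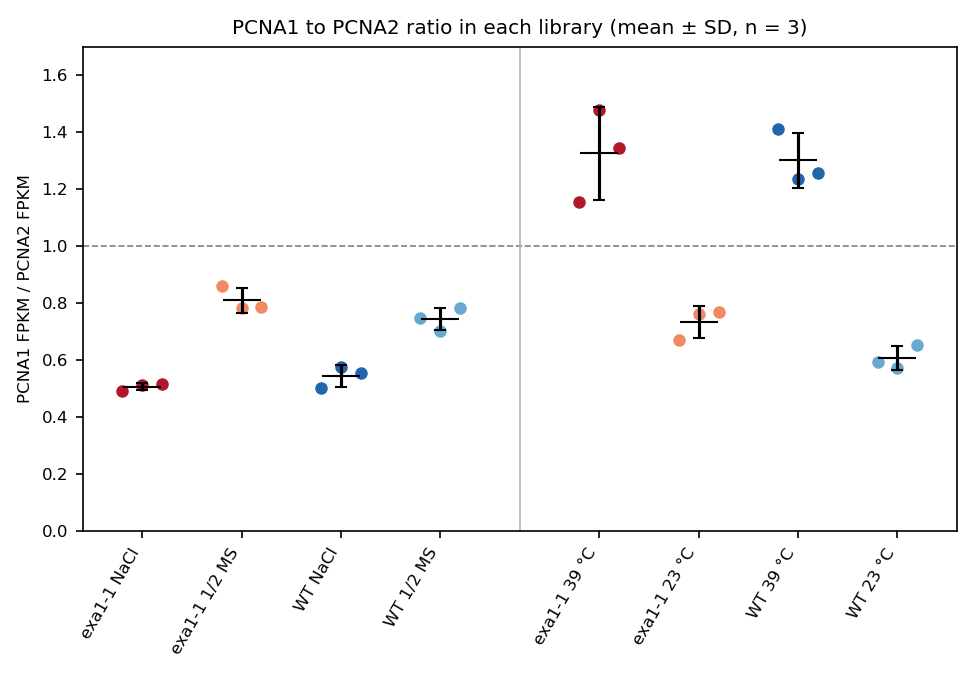
Ratio of PCNA1 to PCNA2 FPKM (y axis) in each library, with mean and SD of 3; the dashed line marks equal levels. All 6 libraries at 39 °C lie above 1, and all others lie below it, with the NaCl groups lowest at means of 0.507 in exa1-1 and 0.544 in wild type.

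Between genotypes in the heat series, differences were few. At 23 °C PCNA1 (0.37 ± 0.10 on the log2 scale, SE; adjusted p = 0.00968) and TSO2 (0.35 ± 0.11; 0.0299) were higher in exa1-1 than in wild type. Of all genes 19.4% passed there, 8.27% as higher. Without replicate 1 of wild type at 23 °C neither passed (adjusted p = 0.0519 for PCNA1 and 0.0865 for TSO2), and TSO2 did not pass without replicate 3 of either genotype at 23 °C (0.0941 without the wild-type library, 0.108 without the exa1-1 one). At 39 °C TSO2 was higher in exa1-1 (0.49 ± 0.16, adjusted p = 0.00329; 24.4% of all genes passed, 12.7% as higher). MCM3, MCM4 and MCM5 were at 0.38, 0.30 and 0.37 with adjusted p of 0.0682, 0.0611 and 0.0646. Other settings gave 1 to 4 genes at 39 °C, each higher in exa1-1: TSO2 in all, and MCM3, MCM4 and MCM5 in 1 or more.

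The unstressed controls of the 2 series were also set against each other, since the series description gives both as normal conditions. All 9 genes were lower in the 23 °C set than in the 1/2 MS set in both genotypes. Of the 21262 genes tested, 32.7% were lower in exa1-1 and 35.3% in wild type (65.6% and 69% passed in all). The log2 differences ran from -0.59 (MCM4) to -1.07 (PCNA1) in exa1-1 and from -0.65 (MCM4) to -1.32 (PCNA1) in wild type. The 3 libraries of a 23 °C group lay below the 3 of the 1/2 MS group for each of the 9 genes. For all genes such separation was not counted. MCM5 had 17.8, 22.4 and 21.7 CPM at 23 °C, against 40.9, 37.8 and 38.1 CPM on 1/2 MS in exa1-1. The wild type had 15.2, 20.0 and 19.8 CPM at 23 °C, against 37.3, 37.7 and 36.6 CPM on 1/2 MS. The sources used here do not say how the sets differed in handling, so any difference in handling and a difference of medium cannot be told apart. The same control libraries also enter the salt and heat comparisons.

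Each series was therefore first set against its own control, and the responses were then compared in 1 fit of the 24 libraries, a comparison added after the other results had been seen. The heat response minus the salt response was positive for all 9 genes in both genotypes with TMM. Of 21907 genes, 36% passed as higher and 38.2% as lower in exa1-1, and 34.9% as higher in wild type (74.2% and 73.3% in all). PCNA1 differed most, by 2.78 ± 0.07 in exa1-1 and 2.74 ± 0.16 in wild type, followed by MCM7 (2.00 ± 0.09) and TSO2 (1.93 ± 0.17) in exa1-1 and by TSO2 (1.51 ± 0.12) and MCM7 (1.37 ± 0.17) in wild type. With total counts, 6 passed as higher and 0 as lower in exa1-1 (MCM3, MCM6, MCM7, PCNA1, PCNA2 and TSO2). In wild type 4 passed as higher (MCM7, PCNA1, PCNA2 and TSO2) and 1 as lower (MCM5, -0.34, adjusted p = 0.0499). With that scaling 14.2% of all genes passed as higher and 64.8% as lower in exa1-1, and 16.2% as higher and 61.8% as lower in wild type. PCNA1 was at 1.92 in exa1-1 and 1.99 in wild type with that scaling. For MCM7, PCNA1, PCNA2 and TSO2 the change in heat thus passed as higher than the change in salt in both genotypes under both scalings. With total counts the heat changes of MCM7, PCNA2 and TSO2 were negative, so higher there means a smaller fall. The changes start from control sets that differed for all 9 genes.

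The rest of the replication machinery is given from lists of genes by role, and the counts are to be read against the 36.2% of all genes that fell in exa1-1 and the 35.6% in wild type. Under salt, all 11 genes of origin licensing fell in both genotypes, as did all 10 DNA polymerase subunits tested and all 8 genes of clamp loading and lagging-strand synthesis. Their medians were -1.31, -1.14 and -0.61 in exa1-1 and -1.03, -0.92 and -0.69 in wild type. The licensing factor CDT1A, which helps to load the helicase, changed by -1.61 ± 0.10 in exa1-1 and -1.39 ± 0.07 in wild type. The origin recognition subunit ORC1B changed by -1.35 ± 0.08 in exa1-1 and -1.03 ± 0.03 in wild type. POLD1, the catalytic subunit of DNA polymerase delta, which works with the clamp, changed by -1.24 ± 0.07 in exa1-1 and -1.02 ± 0.05 in wild type. LIG1, the DNA ligase of the lagging strand, changed by -0.91 ± 0.05 in exa1-1 and -1.05 ± 0.12 in wild type. Helicase activation genes fell in 8 of 8 in exa1-1 and 7 of 8 in wild type (ETG1, a partner of the helicase, -1.14 ± 0.05 in exa1-1 and -0.87 ± 0.12 in wild type), and replication protein A genes in 8 of 9 in both. Of 5 nucleotide supply genes 4 fell and 1 rose in both: RNR2A, another small subunit of ribonucleotide reductase, rose by 0.70 ± 0.03 in exa1-1 and 0.56 ± 0.04 in wild type, where its counterpart TSO2 fell.

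Regulators and markers of other phases were less uniform under salt. E2FA, an activating E2F factor, fell by 1.54 in exa1-1 and 1.34 in wild type on the log2 scale, within a list of E2F, DP and RBR1 genes in which 5 of 9 fell and 1, DEL2, rose in both genotypes. Of 13 histone H3.1 and H4 genes 10 fell in exa1-1 and 12 in wild type, and of 22 genes of G2 and mitosis 18 fell in exa1-1 and 16 in wild type with 0 that rose. Of 8 cyclins of G1 and S phase 6 fell in both genotypes, and 1 rose in exa1-1 and 2 in wild type. The DNA damage response genes fell in 6 of 6 in exa1-1 and 4 of 6 in wild type. Among 11 inhibitors of cyclin-dependent kinases 3 rose and 3 fell in exa1-1, and 3 rose and 4 fell in wild type. Those shares are near those of all genes, of which 35.7% rose and 36.2% fell in exa1-1 and 35.3% rose and 35.6% fell in wild type. SMR5, an inhibitor known to respond to stress, averaged 1.46 CPM under NaCl and 0.170 CPM on 1/2 MS in exa1-1, and 2.16 CPM under NaCl and 0.172 CPM on 1/2 MS in wild type.

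The interaction with genotype that passed for 6 of the 9 genes was counted in the other lists too, beside 11.2% of all genes: it passed for 1 of 11 licensing genes (ORC6, -0.91 ± 0.21), 1 of 10 polymerase subunits (the primase subunit AT5G41880, named POLA3 in the deposited tables, -0.53 ± 0.14), 0 of 8 for clamp loading, 0 of 8 for helicase activation, 1 of 9 for replication protein A (RPA1D, -0.79 ± 0.18). It passed for 1 of 5 for nucleotide supply (DUT1, a dUTPase, -0.82 ± 0.18), 3 of 13 histones and 3 of 22 genes of G2 and mitosis (HIK, a kinesin of cytokinesis, -0.70 ± 0.11), each with the same sign. Of 8 cyclins of G1 and S phase 1 passed with that sign (CYCA3;2, -0.52) and of 11 inhibitors 1 with the other (KRP6, 0.45), and 0 of 9 E2F, DP and RBR1 genes and 0 of 6 DNA damage response genes passed. In the control sets, all 11 licensing genes and all 10 polymerase subunits were lower at 23 °C than on 1/2 MS in both genotypes, with ETG1 at -1.20 ± 0.08 and LIG1 at -1.64 ± 0.08 in wild type. The genes of G2 and mitosis did not follow there: 11 were higher and 0 lower in exa1-1, and 9 higher and 1 lower of 22 in wild type (CDKB2;2, a mitotic kinase, 0.68 ± 0.16). Of all genes 32.9% were higher and 32.7% lower in exa1-1, and 33.7% and 35.3% in wild type. The wild-type share of higher genes in the list was thus not far above that of all genes. With total counts 7 were higher and 0 lower in exa1-1, and 5 and 4 in wild type. With that scaling the median of all genes stood at -0.10 in exa1-1 and -0.17 in wild type, and their shares by direction were not counted.

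**Figure D5:**
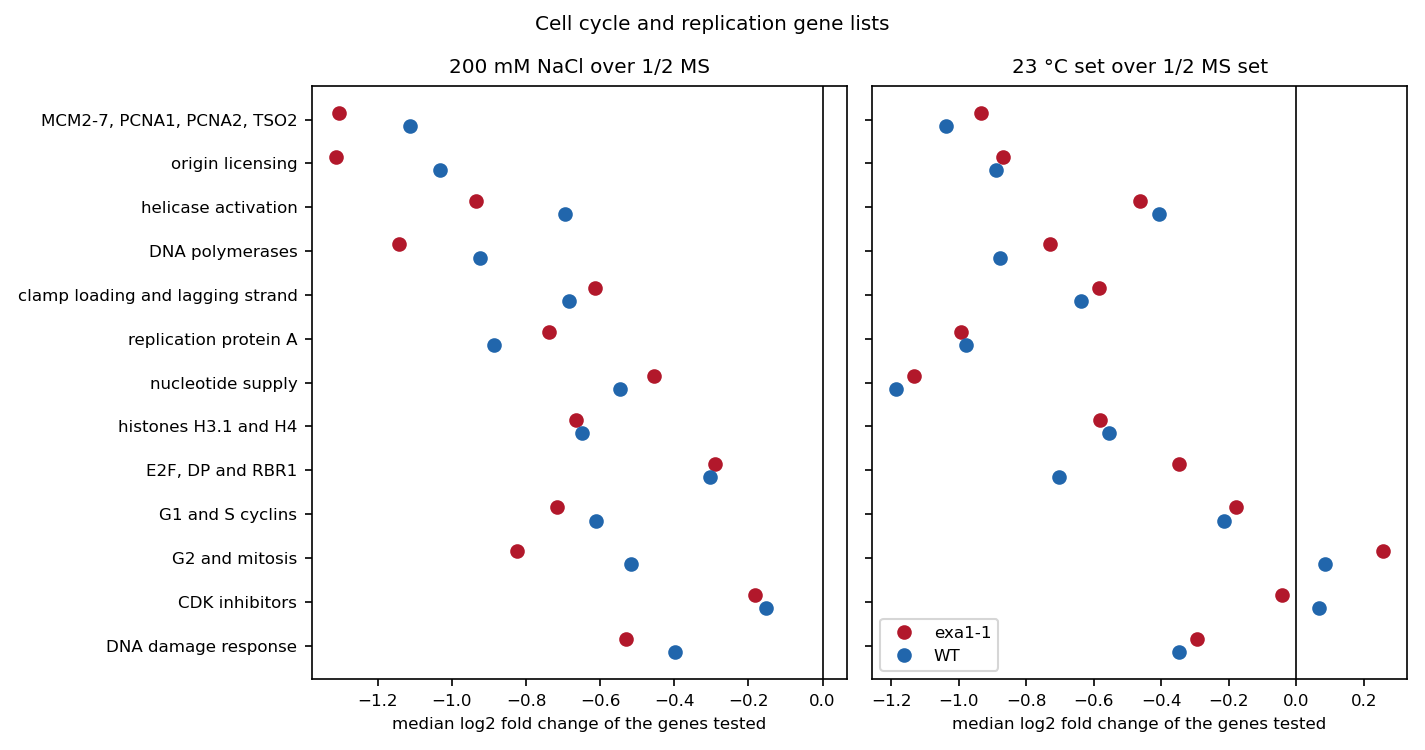
Median log2 fold change (x axis) of each gene list for NaCl over 1/2 MS (left) and for the 23 °C set over the 1/2 MS set (right) in exa1-1 (red) and wild type (blue), with TMM scaling. The lists of replication genes lie below 0 in both panels, and the genes of G2 and mitosis lie below 0 under salt and at 0.26 in exa1-1 and 0.09 in wild type between the control sets.

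In heat the lists differed in direction and in how far it turned with the scaling. The counts with TMM stand beside 38.4% of all genes higher in each genotype, and 41.8% lower in exa1-1 and 41.6% in wild type. With total counts 12.3% were higher and 76.7% lower in exa1-1, and 14.5% higher and 72.5% lower in wild type. Origin licensing had 1 gene higher and 6 lower in exa1-1 and 1 higher and 4 lower in wild type with TMM, and 0 higher and 9 lower of 11 in each with total counts. CDT1A changed by -1.81 ± 0.21 in exa1-1 and -1.75 ± 0.27 in wild type with TMM, and by -2.81 in exa1-1 and -2.63 in wild type with total counts. Clamp loading and lagging-strand genes had 5 higher and 1 lower in exa1-1 and 4 higher and 1 lower in wild type with TMM (LIG1, 0.96 ± 0.07 in exa1-1 and 1.03 ± 0.10 in wild type), but 0 higher and 6 lower in exa1-1 and 0 higher and 5 lower of 8 in wild type with total counts, where LIG1 was at -0.03 in exa1-1 and 0.15 in wild type and did not pass (adjusted p = 0.736 in exa1-1 and 0.147 in wild type). Histone genes had 1 higher and 12 lower of 13 in both genotypes with TMM (H4e, -4.28 ± 0.49 in exa1-1 and -3.77 ± 0.15 in wild type), and 0 higher with total counts, with 13 lower in exa1-1 and 12 in wild type (H4e, -5.28 in exa1-1 and -4.65 in wild type). Of the 9 E2F, DP and RBR1 genes 6 were higher and 1 lower in both genotypes with TMM (E2FB, 1.55 ± 0.15 in exa1-1 and 1.78 ± 0.14 in wild type), and with total counts 1 higher and 4 lower in exa1-1 and 2 higher and 4 lower in wild type (E2FB, 0.56 in exa1-1 and 0.90 in wild type). SMR5 averaged 47.3 CPM at 39 °C and 0.292 CPM at 23 °C in exa1-1, and 33.3 CPM at 39 °C and 0.213 CPM at 23 °C in wild type. KRP1, another inhibitor, averaged 0.820 CPM at 39 °C and 8.82 CPM at 23 °C in exa1-1, and 0.832 CPM at 39 °C and 9.44 CPM at 23 °C in wild type. With total counts SMR5 was still higher (6.31 on the log2 scale in exa1-1 and 6.37 in wild type) and KRP1 still lower (-4.40 in exa1-1 and -4.36 in wild type).

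Across the 24 libraries the log2 CPM profiles of the 9 genes followed each other to different degrees; these libraries share treatments and scaling, so the correlations are descriptions. Pearson's r ran from 0.63 to 0.98 over the 15 MCM pairs, from 0.83 to 0.93 between PCNA2 and the MCM genes, from 0.57 to 0.86 for TSO2 and from 0.42 to 0.91 for PCNA1. Of 17397 genes, the 10 most like the mean MCM profile were POLD1 (r = 0.97), AT4G16970 (0.97), HMGB6 (0.96), the DNA methyltransferase gene CMT3 (0.95), POLA2 (0.95), AT2G26440 (0.95), AT3G05600 (0.95), PDCB1 (0.95), the primase subunit AT5G41880 (0.95) and PHT1;1 (0.94). The 3 most like PCNA1 were CRT1b (0.97), E2FA (AT2G36010, 0.96) and AT3G54750 (0.96). The 3 most like PCNA2 were AT4G25890 (0.96), FLA16 (0.94) and MTO3 (0.94), and the 3 most like TSO2 were DPB2, a subunit of DNA polymerase epsilon (0.96), ASP1 (0.95) and FSD3 (0.95).

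Markers of the tissues in a seedling moved in the same comparisons. Of 6 meristem markers, WUS and CLV3, which mark the small shoot stem cell niche, had at most 0.119 and 0.538 CPM in any library and did not pass the filter. Of the other 4, PLT1, PLT2 and STM fell and WOX5 rose under salt in both genotypes. The summed list ran from 6.80 to 7.85 CPM under NaCl and from 8.63 to 10.5 CPM on 1/2 MS in exa1-1. In wild type it ran from 5.84 to 7.54 CPM under NaCl and from 10.0 to 10.3 CPM on 1/2 MS. In heat with TMM, WOX5 rose by 3.37 in exa1-1 and 2.04 in wild type on the log2 scale. PLT1 (-1.31 in exa1-1 and -2.34 in wild type) and PLT2 (-1.22 and -2.43) fell. These changes rest on few counts: WOX5 had 21 in exa1-1 and 20 in wild type over the 3 libraries at 23 °C. PLT2 had 20 in exa1-1 and 10 in wild type over the 3 libraries at 39 °C. STM fell in exa1-1 (-0.56) and was not called in wild type (-0.36). The summed list, which holds these opposite moves, ran from 8.69 to 9.25 CPM at 39 °C and from 9.86 to 11.1 CPM at 23 °C in exa1-1. In wild type it ran from 5.60 to 6.62 CPM at 39 °C and from 9.55 to 11.2 CPM at 23 °C. Of 5 root markers 4 fell and 1 (TIP2;3) rose under salt in both genotypes, with sums of 1071 to 1116 CPM under NaCl and 1939 to 2129 CPM on 1/2 MS in exa1-1. In wild type the sums were 872 to 902 CPM under NaCl and 1904 to 2161 CPM on 1/2 MS. At 39 °C the root sums were 443 to 466 CPM in exa1-1 and 389 to 418 CPM in wild type, against 1627 to 2298 CPM in exa1-1 and 1434 to 1453 CPM in wild type at 23 °C. PYK10 made up most of each root sum (a mean of 1816 of 1873 CPM in exa1-1 at 23 °C). In heat with TMM, PYK10, LRX1 and EXPA18 fell in both genotypes and EXPA7 in exa1-1 alone, and TIP2;3 was not called. Of 4 green shoot markers 2 rose and 1 fell under salt in exa1-1 and 3 rose and 1 fell in wild type, with sums of 7824 to 8220 CPM under NaCl and 5827 to 6322 CPM on 1/2 MS in exa1-1. In wild type the sums were 12019 to 14349 CPM under NaCl and 7360 to 8358 CPM on 1/2 MS. At 39 °C they were 26462 to 27127 CPM in exa1-1 and 28930 to 34781 CPM in wild type, against 11757 to 13022 CPM in exa1-1 and 15586 to 16513 CPM in wild type at 23 °C. RBCS1A and CAB1 made up most of each green shoot sum. With TMM, RBCS1A, CAB1 and LHCB2.1 rose in heat in both genotypes (LHCB2.1 by 4.19 in exa1-1 and 4.88 in wild type). GUN4 fell in exa1-1 (-0.32) and was not called in wild type (0.21). With total counts in heat RBCS1A was at -0.12 in exa1-1 and 0.03 in wild type on the log2 scale, and all 5 root markers were lower in both genotypes. Under NaCl all 4 green shoot markers were lower in exa1-1 than in wild type, by 0.49 to 1.06 on the log2 scale (13.6% of all genes were lower). On 1/2 MS CAB1 (-0.50), GUN4 (-0.47) and RBCS1A (-0.26) were already lower in exa1-1, and LHCB2.1 (-0.28) was not called (10.1% of all genes were lower). The interaction of genotype and salt passed for RBCS1A (-0.59 ± 0.10, adjusted p = 2.58e-05) and GUN4 (-0.60 ± 0.09, adjusted p = 0.000518) with the sign seen in the 6 replication genes, for the root marker PYK10 with the other (0.31 ± 0.07, adjusted p = 0.00404), and for 0 of 4 meristem markers. The summed seed markers, which differ between single libraries, ran from 0.0896 to 92.9 CPM among the exa1-1 libraries at 39 °C and reached at most 15.4 CPM in the other groups. The part of these tissue markers in the changes of the replication genes was not tested.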

How the data were processed

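RNA from about 50 mg of whole seedlings was sequenced as strand-specific paired reads, per the labels. The authors deposited 2 tables of the whole series: read counts per gene, and FPKM (fragments per kilobase of gene, set against the mapped total of a library). The submitters' processing notes name HISAT2 2.0.4, HTSeq 0.6.1p1 and build TAIR10; they give neither the strand setting of the counting nor the tool behind the FPKM values. A batch entry in the labels is the same for all 24 libraries.

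From the deposited counts, edgeR 4.0.16 in R 4.3.3 (TMM scaling, filterByExpr, quasi-likelihood F test) was fitted across all genes to 12 libraries at a time: the salt series, the heat series, and the 2 control sets. P-values were adjusted over all genes by Benjamini-Hochberg with a threshold of 0.05, and the script was tested on simulated counts with 200 changed genes. Fold changes are log2, and each standard error rests on the libraries' log2 CPM (prior count 2). From the deposited FPKM came levels across genes and the PCNA ratio, tested by exact permutation. Alternatives were DESeq2 1.42.0, total-count scaling, no filter, 1 fit of all libraries, a replicate block, limma 3.58.1 on log2(FPKM + 1) or log2(FPKM + 0.1), and leaving out each library.

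The 9 genes and the gene lists were chosen with earlier results of these data known. Of each list up to 4 genes per comparison, those with the smallest adjusted p, could be named, with the 10 genes most like the mean MCM profile and the 3 most like PCNA1, PCNA2 and TSO2 (mean of at least 1 log2 CPM). Precision rests on 3 libraries a group and on 55 to 1385 counts per gene and library, and counts of reads are not independent molecules.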

Additional observations from a re-analysis of the deposited data

Results flagged for a closer look

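The change under NaCl differed between exa1-1 and wild type, by the test of the difference itself, for 6 genes, each with a larger fall in exa1-1. On the log2 scale the change in exa1-1 minus that in wild type was -0.38 for MCM2, -0.42 for MCM3, -0.43 for MCM4, -0.38 for MCM5, -0.43 for MCM7 and -0.26 for TSO2. With all 24 libraries in 1 fit MCM2, MCM5 and TSO2 did not pass, limma on FPKM lost MCM4 in 2 settings and MCM7 in 1, and TSO2 was also lost when the second wild-type NaCl library was left out, so that MCM3 alone passed in every setting. In each of these 6 genes the 3 exa1-1 libraries lay below the 3 wild-type libraries under NaCl, a separation that was not counted for all genes.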

How the results depend on the processing

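The salt changes and the lower levels of the 23 °C set passed for all 9 genes in both genotypes under each alternative, as did heat minus salt in exa1-1 except with total counts (6 genes). The counts of genes called that moved most were these. With all 24 libraries in 1 fit, 3 genes passed the genotype by salt test in place of 6, heat in exa1-1 called 5 in place of 3, and 4 genes in place of 1 were higher in exa1-1 at 39 °C. At 39 °C DESeq2 called 2 genes and the fit with no filter 3. In heat, total counts called 9 in wild type in place of 5, the 3 limma fits on FPKM 8 each, and in exa1-1 these 4 settings called 7 each in place of 3. At 23 °C limma with no filter called 1 in place of 2. Heat minus salt in wild type called 5 with total counts in place of 9. Moves of 1 or 2 genes were these: the limma fit with no filter lost MCM4 and MCM7 for genotype by salt and MCM4 under NaCl, limma on log2(FPKM + 0.1) lost MCM4 for genotype by salt, and the 24-library fit lost TSO2 under NaCl. In heat DESeq2 lost MCM3 in wild type, the fit with no filter gained MCM2 in wild type and MCM5 in exa1-1, and the 24-library fit gained MCM2 in wild type.

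Heat directions turned with total counts, limma on log2(FPKM + 1), limma on log2(FPKM + 0.1), and limma with no filter, given in that order. In exa1-1, MCM7 was at -0.62, -0.55, -0.62 and -0.55, PCNA1 at -0.0880, -0.0802, -0.0860 and -0.0802, PCNA2 at -0.93, -0.86, -0.93 and -0.86, and TSO2 at -0.23, -0.23, -0.24 and -0.23. In wild type, MCM7 was at -0.70, -0.60, -0.69 and -0.60, PCNA2 at -0.79, -0.72, -0.78 and -0.72, and TSO2 at -0.27, -0.25, -0.27 and -0.25. Heat minus salt in wild type turned with total counts for MCM2 (-0.10), MCM4 (-0.14) and MCM5 (-0.34). All 4 of these settings scale by the total of a library, and in heat the median of all genes stood at -1.08, -0.76, -1.04 and -0.52 in exa1-1 and at -0.95, -0.67, -0.92 and -0.44 in wild type.

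Leaving out 1 library gave 5 to 7 genes for genotype by salt, 4 to 7 under NaCl, 3 to 6 for heat in each genotype, 0 to 3 at 23 °C, 1 to 2 at 39 °C, and 8 to 9 for heat minus salt in wild type. The PCNA ratio changed by -0.58 to -0.54 in salt and by 0.93 to 1.02 in heat. Between genotypes it changed by -0.02 to 0.03 in the salt series and by 0.11 to 0.20 in the heat series. Without replicate 1 of exa1-1 at 39 °C the genotype difference in the heat series passed (0.20, exact permutation test, adjusted p = 0.0333). Libraries with the same replicate number did not deviate together (correlations of -0.05 to 0.10), so the numbers do not pair the libraries. With the replicate block, 4 genes in place of 1 were higher in exa1-1 at 39 °C, and no other count of genes moved: 9 in salt, 6 for genotype by salt and under NaCl, 5 for heat in wild type, 3 in exa1-1, 2 at 23 °C and 0 on 1/2 MS.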
